A study of Saccharomyces cerevisiae with 4 samples.

Results

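The 9 genes described here are ASH1 (YKL185W), 7 other genes whose mRNA is known to travel to the growing bud of budding yeast, and HO (YDL227C), the gene that Ash1 represses. The 7 are IST2 (YBR086C), TCB2 (YNL087W), TCB3 (YML072C), CPS1 (YJL172W), WSC2 (YNL283C), MID2 (YLR332W) and SRL1 (YOR247W). They were taken by their systematic IDs, and all 9 were found among the 6207 gene rows of the table. Each of 4 microarrays of 2 colours compared mRNA of a Saccharomyces cerevisiae strain lacking LOC1 (PSY3262) directly with mRNA of a wild-type strain (PSY3259). Per the labels the arrays were separate biological replicates, with the knockout in Cy5 on arrays 1 and 4 and in Cy3 on arrays 2 and 3. Both strains grew in 50 mL of rich medium at 30 °C to early log phase, at an optical density of 0.2 to 0.4. On array 4 both channels carry the tag PSY3262, and the channel described as wild type was taken as such. The sources used here do not say how LOC1 was removed, nor the mating type or the HO allele of the strains.

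In budding yeast a motor complex of the myosin Myo4 with She2 and She3 carries a set of mRNAs along actin cables into the bud, where they are translated. ASH1 mRNA is the best studied cargo: its protein gathers in the daughter nucleus and represses HO, so that mother cells switch mating type and daughters do not. Loc1 is a nuclear RNA-binding protein needed for ASH1 mRNA to reach the bud, and it also takes part in assembly of the large ribosomal subunit. The arrays measured the amount of each mRNA in whole cultures and carry no information on where in the cell it was. The samples are bulk RNA, so fewer cells that make an mRNA and less of it per cell cannot be told apart.

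Values are the authors' deposited log ratios, in deposited log units. The sources used here name no base, and base 10 was taken from the values alone. The dye labels did not settle which way the ratios run. Across 6191 genes the deposited columns of arrays 1 and 4, labelled alike, had r = -0.723, and the likewise matched columns of arrays 2 and 3 had r = -0.612. Each column was therefore turned so that LOC1 (YFR001W) lay below 0, and "lower" means lower in the knockout under that alignment. LOC1 then stood at -1.20, -0.972, -1.07 and -1.31 on arrays 1 to 4, a description whose sign the alignment set. The mean of LOC1 was -1.14, and 0.0161% of all genes had a larger size of change. The alignment gave LOC1 the same sign on every array, so the size and rank of this mean are no test of the direction. With the sign turned on all arrays, every rise and fall below exchanges. LOC1 would then stand at 1.14, which is higher in the strain lacking that gene than in wild type. Turned by the dye labels instead, with the table read as Cy5 over Cy3, 0 of the 9 genes passed the test described next (limma; 0.0161% of all genes passed, and 72 had an unadjusted p under 0.05).

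Of the 9 genes, ASH1, IST2, TCB2, TCB3 and CPS1 fell and WSC2, MID2 and SRL1 rose, while HO did not pass the test. A gene was called where limma's adjusted p, over all 6205 genes tested on the 4 arrays, was under 0.05. By that rule 44.2% of all genes passed, 21.7% lower and 22.5% higher, so 8 of 9 called, 5 lower and 3 higher, is read against those shares. With the sign turned the 9 would have 3 lower and 5 higher. Leaving out single arrays kept 5 lower and left 1 or 2 higher, since WSC2 and MID2 lost their calls as given with their values. In those fits 2009 to 2598 of all genes passed, 977 to 1301 lower and 1006 to 1297 higher, against 2743 with all 4 arrays. The median of the 9 means was -0.196, against 0.0019 over all genes tested. Their median size of change was 0.196, against 0.0679 over all genes. All but HO had the same sign on every array, which 56.6% of all genes had, 28.0% below 0 and 28.5% above it.

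**Figure D1:**
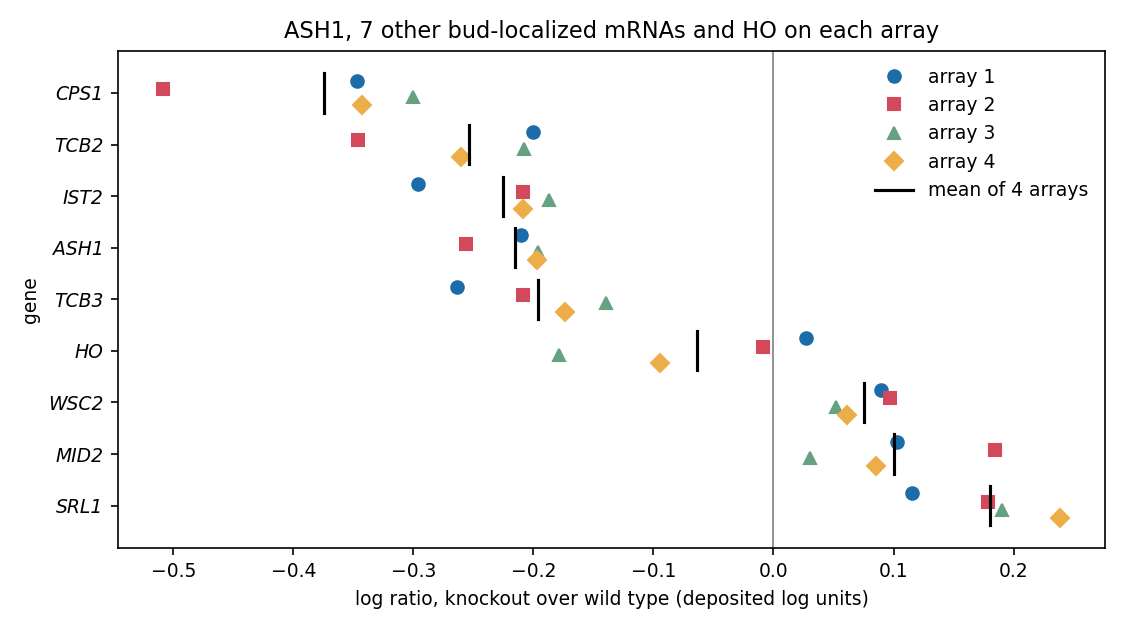
Log ratio of each of the 9 genes on arrays 1 to 4 (symbols, x axis in deposited log units, knockout over wild type after LOC1 was turned below 0), with the mean of the 4 arrays as a vertical line. The 5 genes at the top lie below 0 on all 4 arrays, WSC2, MID2 and SRL1 lie above 0 on all 4, and HO lies on both sides of 0.

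ASH1, the repressor of HO, was at -0.210, -0.256, -0.196 and -0.197 on arrays 1 to 4. Its arrays lay closer together than those of the other 4 fallen genes, with array 2 the lowest. The mean was -0.215 ± 0.0282 (SD, n = 4), a 1.64-fold lower level if base 10 and 1.16-fold if base 2 (adjusted p = 0.00034 in limma). The 95% interval of the mean ran from -0.267 to -0.162. Of all genes tested, 6.77% had a larger size of change. Leaving out each array in turn placed the mean between -0.221 and -0.201, and ASH1 passed the test each time.

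CPS1 encodes carboxypeptidase S of the vacuole, and it fell furthest of the 9. Its values were -0.347, -0.508, -0.300 and -0.343 on arrays 1 to 4, and on every array it was the lowest of the 9 genes. The mean was -0.375 ± 0.0917 (SD, n = 4, 2.37-fold lower if base 10, adjusted p = 0.0002 in limma). Only 1.5% of all genes had a larger size of change.

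IST2, TCB2 and TCB3 encode membrane proteins of the cortical endoplasmic reticulum that tether it to the plasma membrane, and all of them fell. IST2 was at -0.296, -0.208, -0.187 and -0.209 on arrays 1 to 4, with a mean of -0.225 ± 0.0486 (SD, n = 4, adjusted p = 0.00051 in limma). Array 1 was its lowest, and the other 3 arrays lay close together. TCB2, a tricalbin with lipid-binding and calcium-binding domains, was at -0.201, -0.346, -0.208 and -0.260, and its mean was -0.254 ± 0.0669 (adjusted p = 0.00053 in limma, n = 4). Its lowest value was on array 2. The related tricalbin TCB3 was at -0.264, -0.209, -0.140 and -0.173, with a mean of -0.196 ± 0.053 (adjusted p = 0.00099 in limma, n = 4). Each of these genes was below 0 on 4 of 4 arrays, and if base 10 they were 1.57-fold to 1.79-fold lower.

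WSC2 and MID2 encode sensors of the plasma membrane that report cell wall stress to the protein kinase C pathway, and both lay above 0 on all 4 arrays. WSC2 was at 0.0898, 0.0968, 0.0525 and 0.061 on arrays 1 to 4. Its mean of 0.075 ± 0.0216 (SD, n = 4) was 1.19-fold higher if base 10, with adjusted p = 0.026 in limma. The call of WSC2 ended without replicate 1 (0.0701, adjusted p = 0.0814), replicate 2 (0.0677, adjusted p = 0.0664), replicate 3 (0.0825, adjusted p = 0.0651) or replicate 4 (0.0797, adjusted p = 0.0641). MID2 was at 0.103, 0.185, 0.030 and 0.0853, with array 2 the highest and array 3 nearest to 0. Its mean was 0.101 ± 0.064 (SD, n = 4, 1.26-fold higher if base 10, adjusted p = 0.0231 in limma). The call of MID2 ended without replicate 1 (0.10, adjusted p = 0.0735), replicate 2 (0.0727, adjusted p = 0.0659) or replicate 4 (0.106, adjusted p = 0.0555). The size of change of WSC2 was exceeded by 46.1% of all genes and that of MID2 by 33.1%, so neither stood far from the middle of the table.

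SRL1, which encodes a mannoprotein of the cell wall, rose most of the 9. Its values were 0.115, 0.179, 0.190 and 0.239 on arrays 1 to 4, all above 0. The mean was 0.181 ± 0.0508 (SD, n = 4, 1.52-fold higher if base 10, adjusted p = 0.0013 in limma). The array also holds a row for the ID numbered next to it, YOR248W, which was chosen after its values were seen and has no entry in the RefSeq table. YOR248W had a mean of 0.18 ± 0.0702 (adjusted p = 0.00246 in limma) and was at 0.0798, 0.204, 0.195 and 0.243. Probe sequences were not used here, so whether the SRL1 and YOR248W rows share signal was not tested.

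HO encodes the endonuclease that starts mating-type switching, and it is the target of Ash1 that gave the protein its known role. HO was at 0.0267, -0.0087, -0.179 and -0.0949 on arrays 1 to 4. Arrays 1 and 2 lay near 0 and arrays 3 and 4 below it. The mean was -0.0639 ± 0.092 (SD, n = 4), its 95% interval ran from -0.145 to 0.0172, and it did not pass (adjusted p = 0.173 in limma; 0.375 unadjusted in an exact two-sided sign-flip permutation test, whose smallest p with 4 arrays is 0.125). On arrays 1 and 2 alone the mean was 0.009 (adjusted p = 0.864 in limma), and on arrays 3 and 4 alone it was -0.137 (adjusted p = 0.0057). In those settings 19.1% and 46.7% of all genes passed. These pairs run along the split seen in the values of HO, so the second p is no separate test of a fall. Read as Cy5 over Cy3, the dye labels gave the same turn as LOC1 on arrays 1 and 2. For arrays 3 and 4 they gave the opposite turn. Whether this bears on the split in HO was not tested. FLO11, a cell surface flocculin gene that Ash1 is known to promote, was at 0.0825, -0.0008, 0.0285 and -0.0082, a mean of 0.0255 ± 0.0412, and did not pass either (adjusted p = 0.43 in limma).

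The order of the means from lowest to highest was CPS1, TCB2, IST2, ASH1, TCB3, HO, WSC2, MID2 and SRL1. CPS1 was below TCB2 on 4 of 4 arrays, by 0.121 ± 0.0395 (SD, n = 4). TCB2, IST2, ASH1 and TCB3 were not separated beyond their spread: neighbours among them differed by 0.0101 to 0.0286, with SDs of 0.0499 to 0.0963. TCB3 was below HO on 3 of 4 arrays, by 0.132 ± 0.144. HO was below WSC2 on 4 of 4 arrays, by 0.139 ± 0.0723. WSC2 and MID2 differed by 0.0257 ± 0.0461, and MID2 and SRL1 by 0.080 ± 0.0889, both within the spread. In exact sign-flip permutation tests of these 8 differences, the unadjusted p was 0.125 for CPS1 against TCB2 and for HO against WSC2, the smallest that 4 arrays allow, and 0.25 to 0.75 for the others. After Benjamini-Hochberg adjustment over the 8 differences none of the permutation p values was below 0.5. The pairs were ordered by these same means and no p under 0.125 was possible, so these tests could not decide whether neighbours differ. On each array the highest of the 5 fallen genes lay between -0.208 and -0.140, and the lowest of the 3 risen genes between 0.030 and 0.0968.

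**Figure D2:**
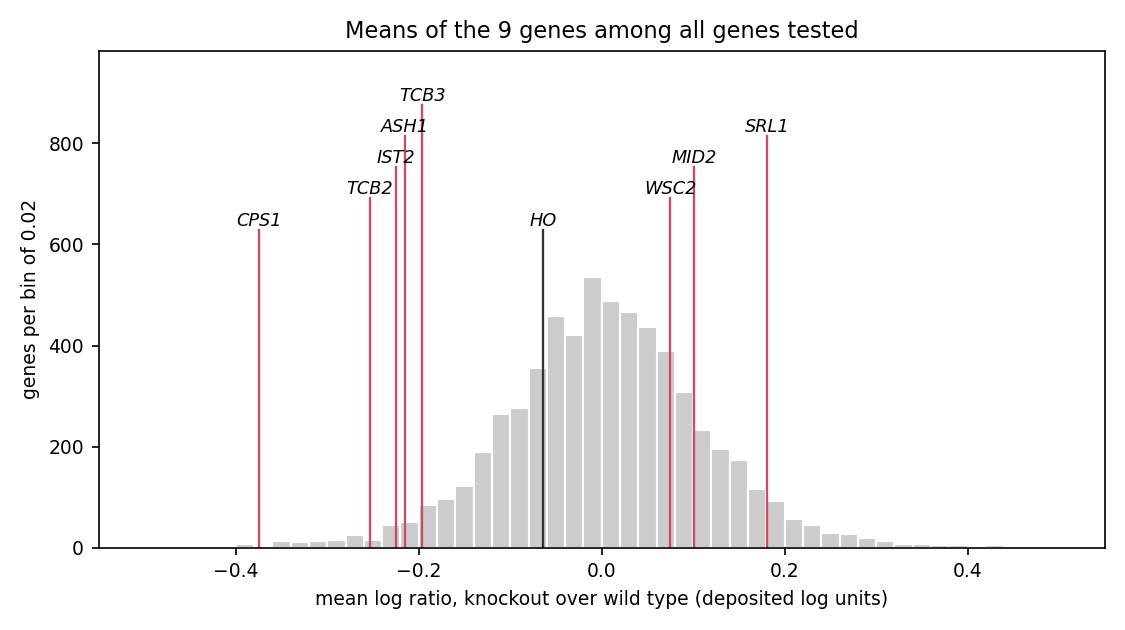
Histogram of the mean log ratio of the 6205 genes tested (x axis in deposited log units, y axis genes per bin of 0.02), with a vertical line at each of the 9 genes, red where it passed the test and black where it did not. The axis leaves out 50 genes beyond 0.5 on either side. The 5 fallen genes lie in the lower tail, SRL1 in the upper flank, and HO, WSC2 and MID2 within the body of the distribution.

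By the root mean square difference over the 4 arrays, the genes with a symbol nearest to ASH1 among 5117 compared were HSP82, SEC31, SNG1, WSC4 and MSC3. HSP82, which encodes the chaperone Hsp90, was at -0.209, -0.255, -0.205 and -0.195, a difference of 0.0047 from ASH1. SEC31, a subunit of the COPII vesicle coat, differed by 0.015, and SNG1, WSC4 and MSC3 by 0.021 to 0.0229. The genes nearest to HO were GCS1, which encodes a GTPase-activating protein of vesicle transport, at a difference of 0.023, THO1 at 0.0245 and GET3 at 0.025. GCS1 is also the gene beside HO on the chromosome, and it was at 0.0008, 0.004, -0.144 and -0.104, so both lay near 0 on arrays 1 and 2 and below 0 on arrays 3 and 4.

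None of the 9 genes stands beside another of them on a chromosome. In the order of the RefSeq table, 18 array rows stand next to the 9 genes, of which 3 fell, 7 rose and 8 did not pass, where 44.2% of all genes passed, 21.7% lower and 22.5% higher. YOR248W, the row numbered next to SRL1, was called higher but has no entry in that table and is not among the 18. Beside the 5 fallen genes 3 of 10 neighbours fell and 4 rose. Beside ASH1, the polyamine synthesis gene SPE1 fell by 0.0951 (adjusted p = 0.0113 in limma) and the mRNA export gene MTR2 rose by 0.138 (adjusted p = 0.0021). Both neighbours of CPS1 rose, RFA3, a subunit of the single-stranded DNA binding complex of replication, by 0.153 and TOH1 by 0.104. Beside IST2, the mitochondrial carrier gene AAC3 fell by 0.121 and RFC5, a subunit of the clamp loader of DNA replication, rose by 0.105. TOP2, the DNA topoisomerase gene beside TCB2, fell by 0.114. Beside the 3 risen genes 3 of 6 neighbours rose, namely POP3 by 0.123 beside WSC2, the ribosomal protein gene RPS25B by 0.121 beside MID2 and ENV9 by 0.122 beside SRL1, and 0 fell. JIP3, a row that overlaps MID2 in the RefSeq table, was at 0.0576 ± 0.0242 and did not pass (adjusted p = 0.0676 in limma).

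**Figure D3:**
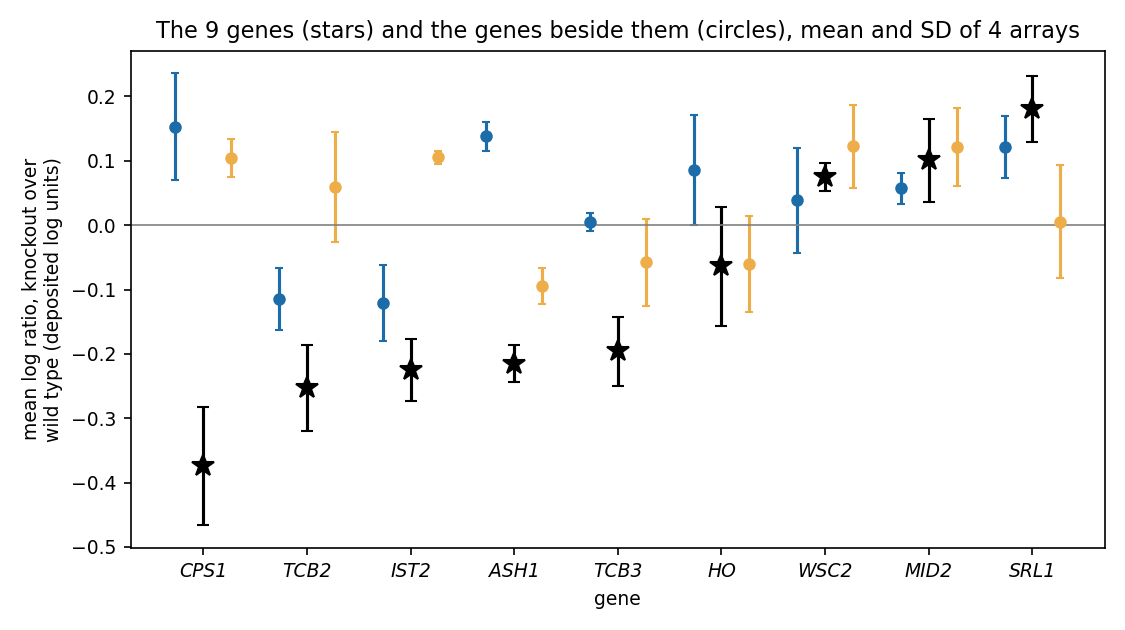
Mean log ratio (y axis, deposited log units) of the 9 genes (stars) and of the array rows beside each in the RefSeq table order (circles, blue for the lower and yellow for the higher coordinate), with bars of 1 SD over 4 arrays. The fallen genes lie below both of their neighbours, but they were grouped by their low means, so this placement is no separate result.

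ASH1 and 7 of the other genes stand in a list of 22 mRNAs known to be localized to the bud, and the remaining 14 leaned to the lower side as well. In the whole list 12 fell, 4 rose and 6 did not pass, with a median of -0.116 against 0.0019 over all genes, of which 21.7% fell and 22.5% rose. The counts of the other lists stand against the same shares. Among the 14 alone, 7 fell, 1 rose and 6 did not pass, with a median of -0.0796. EGT2, a cell wall endoglucanase gene expressed as cells leave mitosis, was at -0.298, -0.296, -0.302 and -0.290, a mean of -0.296 ± 0.005 (SD, n = 4, adjusted p = 6.3e-05 in limma). CLB2, the mitotic cyclin gene, was at -0.103, -0.111, -0.121 and -0.136 and fell by 0.118. The other fallen members, picked out once their values were known, were MMR1, which ties mitochondria to the bud's myosin, at -0.172, EAR1 at -0.133, BRO1 at -0.131, IRC8 at -0.127 and DNM1, the mitochondrial fission GTPase, at -0.114. YLR434C rose by 0.0659 with adjusted p = 0.0384 in limma, and leaving out any 1 array ended its call (0.0602 to 0.0702, adjusted p = 0.0583 to 0.129). ERG2 at 0.0362, LCB1 at 0.0257, MET4 at -0.0444, TAM41 at -0.0069, TPO1 at -0.0452 and RGL1 at 0.0473 did not pass. RGL1 passed without replicate 2 (0.0766, adjusted p = 0.0437). The count of fallen members was 12 without each array in turn, and that of risen members was 1 or 2.

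SWI5, the gene of a transcription factor that switches on ASH1 and HO as cells leave mitosis, fell by 0.104 ± 0.058 (adjusted p = 0.0173 in limma), and did not pass without replicate 1 (-0.0841, adjusted p = 0.0745) or 4 (-0.105, adjusted p = 0.0511). Of 8 marker genes of the G2 and M phases, 4 fell and 0 rose, with a median of -0.0934, among them CLB1 at -0.121 and BUD4, a bud site gene, at -0.110. The 4 include CLB2, counted above among the bud-localized mRNAs, and SWI5, counted below among the regulators of HO. Without replicate 3, CLB1 was at -0.105 with adjusted p = 0.0505. Of 8 marker genes of the G1 and S phases, 1 fell and 1 rose, with a median of -0.0225. The cyclin gene CLN1 was at -0.168 and CLN2 at 0.0806, and CLN2 lost its call without any 1 array (0.0609 to 0.092, adjusted p = 0.0508 to 0.096). The part of cell cycle phase in the falls of ASH1 and the other genes was not tested.

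Of 18 genes that regulate HO, ASH1 included, 6 fell, 1 rose and 11 did not pass, with a median of -0.0477. The 7 called of 18 are a smaller share than the 44.2% of all genes, so the count shows nothing particular to regulators of HO. SAP30, a subunit of the Rpd3 histone deacetylase complex, rose by 0.142 ± 0.0141 (SD, n = 4, adjusted p = 0.0016 in limma). SWI6, part of the factor that activates HO in G1, was at -0.104 and WHI5, its repressor, at -0.104. The call of SWI6 ended without replicate 1 (-0.0877, adjusted p = 0.105), replicate 3 (-0.110, adjusted p = 0.0655) or replicate 4 (-0.0835, adjusted p = 0.103), and that of WHI5 without replicate 2 (-0.0782, adjusted p = 0.0659) or 4 (-0.0925, adjusted p = 0.0827). The list's count of fallen genes was 1 to 5 when single arrays were left out, the lowest of these without replicate 4, and ASH1 passed each time.

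HO is expressed in haploid cells only, so genes that mark cell type were read beside it. Of 9 haploid-specific genes, HO included, 1 rose and 0 fell, with a median of -0.0357. The riser was NEJ1, a DNA end-joining gene, at 0.0921, which did not pass without replicate 1 (0.0736, adjusted p = 0.116) or 3 (0.0761, adjusted p = 0.127). STE4, the beta subunit of the pheromone receptor's G protein, was at -0.0749 (adjusted p = 0.0567 in limma) and passed without replicate 2 (-0.102, adjusted p = 0.0178). It also passed with the columns centred, scaled or quantile normalized (-0.0766 to -0.0758, adjusted p = 0.0408 to 0.0434 in limma). In each of those settings 1 haploid-specific gene fell. Of 7 MATa-specific genes 4 fell and 1 rose, with a median of -0.125, and of 4 MATalpha-specific genes 0 passed. BAR1, whose protein cleaves alpha factor, fell by 0.497 ± 0.0649 (SD, n = 4), STE6 by 0.136 and AGA2 by 0.125. ASG7, the 1 that rose and picked out once known, was at 0.0726 and lost its call without any 1 array (0.0616 to 0.0853, adjusted p = 0.055 to 0.12). The a-factor gene MFA1 was at -0.16, and its call ended when replicate 1 was left out (-0.0937, adjusted p = 0.0838), as it did for replicate 3 (-0.162, adjusted p = 0.0796) and replicate 4 (-0.173, adjusted p = 0.0571). MF(ALPHA)1 was at 0.0778 and passed without replicate 3 alone (0.112, adjusted p = 0.0278), and SAG1 was at 0.0184. Log ratios give differences between the strains and no level, so the mating type itself could not be read from them.

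IST2, TCB2 and TCB3 encode tethers between endoplasmic reticulum and plasma membrane. Of 5 measured genes of that list, 4 fell and 1 rose, with a median of -0.207, where 21.7% of all genes fell. Of these 4, 3 are IST2, TCB2 and TCB3 themselves, and of the other 2 genes 1 fell and 1 rose, with a median of -0.0615. TCB1, the third tricalbin and the paralog of TCB2, is not in the list of bud-localized mRNAs and was at -0.0916, -0.205, -0.268 and -0.265. Its mean of -0.207 ± 0.0825 (SD, n = 4, adjusted p = 0.0019 in limma) lay between those of TCB2 and TCB3. SCS2, a tether of the VAP family, was at 0.0843 (adjusted p = 0.023) and was named after its values were seen. Its call ended without replicate 1 (0.0859, adjusted p = 0.0639), replicate 2 (0.0672, adjusted p = 0.0683) or replicate 4 (0.0865, adjusted p = 0.0633).

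CPS1 was read beside other hydrolases of the vacuole, of which 5 of 11, CPS1 included, fell and 1 rose, with a median of -0.062. APE1, the vacuolar aminopeptidase I, fell further than CPS1, by 0.467 ± 0.0515 (SD, n = 4), the phosphatase gene PHO8 by 0.239 and the protease gene PRB1 by 0.212. The remaining called genes were picked out once known. PRC1, carboxypeptidase Y, was at -0.0898. Its call ended without replicate 3 (-0.087, adjusted p = 0.0577) or 4 (-0.0812, adjusted p = 0.0568). APE3, an aminopeptidase, was at 0.0908. Its call ended without replicate 1 (0.0784, adjusted p = 0.112), replicate 3 (0.0748, adjusted p = 0.129) or replicate 4 (0.0914, adjusted p = 0.0805).

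Of 16 genes of the wall sensors and their pathway, WSC2 and MID2 included, 6 rose, 3 fell and 7 did not pass, with a median of -0.0093, and when single arrays were left out the count of risen genes was 1 to 4. WSC3, the paralog of WSC2, was at 0.130, 0.0487, 0.0828 and 0.134, a mean of 0.0989 ± 0.0408 (SD, n = 4, adjusted p = 0.0131 in limma). Its call ended without replicate 1 (0.0884, adjusted p = 0.0555) or 4 (0.0873, adjusted p = 0.0578). WSC4, another member of the family, fell by 0.195 ± 0.0229. MTL1, the paralog of MID2, was at 0.0129, -0.0234, 0.0603 and 0.079, a mean of 0.0322, and did not pass (adjusted p = 0.332). Downstream, the GTPase gene RHO1 was at 0.129, the kinase-like gene KDX1 rose by 0.138, and ROM2, an exchange factor of Rho1, fell by 0.120. RHO1 did not pass without replicate 1 (0.112, adjusted p = 0.0649). The kinase gene BCK1, also picked out once known, was at -0.0746 and kept its call only without replicate 1 (-0.0886, adjusted p = 0.0384), not without the others (-0.0723 to -0.0654, adjusted p = 0.0653 to 0.129).

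Wall proteins like SRL1 were mostly higher. Of 9 measured genes, SRL1 included, 6 rose and 0 fell, with a median of 0.104, and the count was 4 to 6 when single arrays were left out. SED1, an abundant wall mannoprotein, rose by 0.271 ± 0.0249 (SD, n = 4), PIR3 by 0.147 and HSP150 by 0.105. SVS1, the paralog of SRL1, was at 0.0893 ± 0.0491 (adjusted p = 0.0243 in limma), and its call ended without replicate 2 (0.0702, adjusted p = 0.073), replicate 3 (0.0941, adjusted p = 0.0676) or replicate 4 (0.0838, adjusted p = 0.0832).

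**Figure D4:**
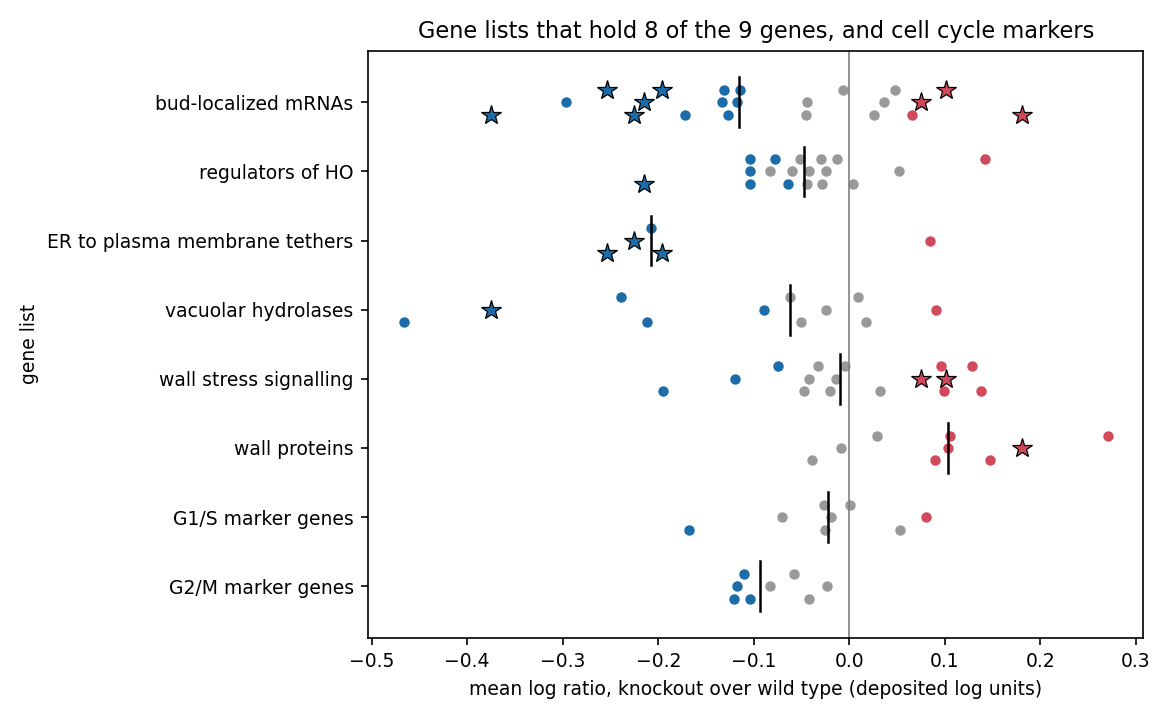
Mean log ratio (x axis, deposited log units) of every measured gene in lists that hold 8 of the 9 genes and in the cell cycle marker lists, with the list's median as a vertical line. Stars are those 8 genes (HO is in none of these lists), blue and red mark genes that passed the test lower and higher, and grey marks genes that did not. The tethers lie at -0.254 to -0.196 with SCS2 at 0.0843 apart, and the wall proteins lie mostly above 0.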

How the data were processed

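The authors deposited 1 log10 ratio per feature and array (base taken from the values, which end at a size of 2) in a table of 6210 rows. The sources used here name no scanner, background correction, normalization or log base. The table gives no signal over background, so a ratio from a spot near background could not be recognized for any gene, HO and FLO11 included. Precision is also limited by the 4 arrays. The 3 control rows were left out. Columns 2 and 4 were turned to place LOC1 below 0, an alignment that rests on measured values. Column medians lay between -0.0107 and 0.0119, and no centring was applied. Genes with at least 3 values (6205 of 6207) were fitted with limma 3.58.1 in R 4.3.3 (lmFit and eBayes, 1 mean against 0, two-sided, Benjamini-Hochberg adjustment over all genes, threshold 0.05). The fit was also run on simulated data with independent noise and planted changes. That simulation had no turned columns and no effects shared between genes, so it could not test the direction of the ratios. Names came from a RefSeq table of assembly R64, which matched 5654 IDs and was used for names and neighbours only. The 9 genes, the gene lists and the rule for named genes were chosen with earlier results of these data known. By that rule the text names the 9 genes and LOC1, up to 4 genes past the threshold with the largest change in each list (or the 2 with the smallest p), paralogs, FLO11, the genes nearest in pattern to ASH1 and HO, and chromosomal neighbours, most of which are only counted where they did not pass. 1 further gene list is not reported here. Alternatives covered centring, scaling, dye terms, direction, filters, moderation, array weights and left-out arrays.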

Additional observations from a re-analysis of the deposited data

Results flagged for a closer look

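In a check of the 4 arrays of 79 genes, 2 had 1 array far from the other 3 (Dixon's test, and chance flags about 1 group in 20). BAR1, a marker of MATa cells, was at -0.593 on array 4 and between -0.474 and -0.457 on the others. TOH1, the neighbour of CPS1, was at 0.148 on array 3 and between 0.087 and 0.0927 on the others. None of the 9 genes was among them.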

How the results depend on the processing

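ASH1, IST2, TCB2, TCB3, CPS1 and SRL1 kept their direction and their call under the 17 alternatives that left the direction of the ratios as aligned. Over those alternatives their adjusted p in limma reached at most 0.0464 (SRL1). Direction moved the values most. Turned by the dye labels, ASH1 was at -0.0183, IST2 at -0.0273, TCB2 at -0.0195, TCB3 at -0.0398, CPS1 at -0.053, WSC2 at 0.0183 and MID2 at 0.043, while SRL1 at -0.0337 and HO at 0.0729 changed sign. Of the 9 genes 0 then passed, 0 lower and 0 higher, and of all genes 1 passed, 0 lower and 1 higher. With the sign turned on all 4 arrays the values were 0.215 for ASH1, 0.225 for IST2, 0.254 for TCB2, 0.196 for TCB3, 0.375 for CPS1, 0.0639 for HO, -0.075 for WSC2, -0.101 for MID2 and -0.181 for SRL1, with 3 lower and 5 higher. For 69 other genes the text names, the turned sign only exchanges directions and was not tabulated, and by the dye labels 36 changed sign and 0 passed.

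WSC2 lost its call with a dye term by the deposited LOC1 sign (0.075, adjusted p = 0.0557) and on arrays 1 and 2 alone (0.0933) or 3 and 4 alone (0.0567). MID2 lost it without moderation (0.101, adjusted p = 0.118) and on arrays 1 and 2 alone (0.144) or 3 and 4 alone (0.0577), and each pair of arrays left 1 of the 9 genes higher. Leaving out single arrays gave 0.0677 to 0.0825 for WSC2, 0.0727 to 0.124 for MID2 and 1 to 2 of the 9 genes higher. HO passed with array weights (-0.0968, adjusted p = 0.0468 in limma) and changed sign on arrays 1 and 2 alone (0.00902). It also passed on arrays 3 and 4 alone (-0.137), the arrays on which it was lowest, so that pass is no separate test. Over all genes 1380 passed without moderation, 706 lower and 674 higher, and 1185 on arrays 1 and 2 alone, 554 lower and 631 higher. Among the other genes, none of them past the threshold in either setting, the sign changed for SAG1 (-0.0113 to 0.0349 with single arrays left out, -0.0014 on arrays 3 and 4), TAM41 (-0.0277 to 0.0174 with single arrays left out, 0.0341 on arrays 1 and 2) and, on arrays 1 and 2, MTL1 (-0.0053), GCS1 (0.0024) and GET3 (0.014). Of the comparisons for the other genes, 1032 were unchanged, 117 lost a call, 17 gained 1 and 7 changed sign. The cause was not tested. Each array holds its knockout and wild-type RNA as 1 ratio, so the test of the mean ratio against 0 was already paired within arrays.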
